A study of Rattus norvegicus with 11 samples.

Results

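Cytochrome P450 genes are described here in ventricle tissue of the rat heart. The animals were of the inbred Fischer-344 strain, which is widely used in ageing research. Total RNA was measured on 11 Affymetrix rat expression arrays, 6 from old rats of 22 months and 5 from young rats of 4 months. The labels name no treatment or genotype beyond the strain, and do not tie the arrays to individual rats. The p-values therefore measure only how far these samples spread, and part of that spread may be technical. The members are all genes whose symbol starts with Cyp and a number in the platform annotation, taken from probe sets with 1 symbol only. Each probe set combines several short probes into 1 reading. This gave 84 probe sets for 49 genes, of 8799 probe sets and 4736 genes with a single symbol in all. Each gene is represented by its brightest probe set, the one with the highest mean log2 intensity over the arrays.

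P450 enzymes are haem proteins that insert oxygen into small molecules. Families 1 to 3 mainly act on foreign compounds and steroids, family 4 hydroxylates fatty acids and eicosanoids, and other families build steroid hormones, bile acids and sterols or make and break down vitamin D and retinoic acid. Liver, kidney, adrenal gland and gonads are their best known sites. In heart muscle and its vessels, the forms that oxidise arachidonic acid are the best known, because their products act on vessel tone and on ion channels. Most P450s receive electrons from the reductase Por, and the mitochondrial forms from the ferredoxin Fdx1.

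Heart muscle markers were bright on these arrays: 9 of 10 measured cardiomyocyte genes, among them Myh6, Tnnt2 and Myl2, stood above background on all 11 arrays. In old replicates 3 and 4 the GAPDH control had 3' over 5' log2 ratios of 3.39 and 4.09, a sign of RNA quality, against 0.07 to 0.77 on the other arrays. Old replicates 3 to 6 and young replicate 4 had bright bacterial spike-in controls, at 11.97 to 15.24 on the log2 scale. The other 6 arrays had dim ones, at 9.55 to 10.20. The classes were cut at the widest gap between the ordered arrays, 1.76. The second widest gap, within the bright class, was nearly as wide, at 1.71. Young replicate 4, at 11.97, lay apart from the next bright array, at 13.19. The spike-in difference lies partly across the age groups. The differences of the named members are therefore also given within a class or with spike-in class as a block. Those among the dim arrays rest on old replicates 1 and 2 against young replicates 1, 2, 3 and 5. Old replicate 3 also carried lung markers: the surfactant genes Sftpc, Sftpa1 and Sftpd read 18112, 3353 and 546 there, against at most 78.4, 404 and 57.3 on the other arrays. The airway gene Scgb1a1 read 1507 there and 1123 in old replicate 6, against at most 421 elsewhere. The surfactant gene Sftpb did not single out that array: it read 2384 there, 2205 in old replicate 5 and 3113 in young replicate 4. The part of lung RNA in the P450 readings of that array was not tested.

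The deposited table holds no detection calls, so the background of each array was taken from genes of other organs. It is the 90th percentile of intensity over 187 probe sets of 115 such genes (pituitary and pancreatic hormones, digestive enzymes, testis, lens, milk and brain receptor genes), and ran from 352 in young replicate 5 to 804 in old replicate 6. A signal above it means brighter than 9 in 10 of those probe sets. It does not by itself show that the named transcript was present or which cells made it: 5 of the 187 other-organ probe sets (2.67%) stood above it on all 11 arrays, and 11 (5.88%) on all arrays of an age group. Lep, Sftpb and Apoc3, named below among markers of fat, lung and liver, also exceeded it on 10 or 11 arrays. Of the 49 P450 genes, 27 stood above background on 0 arrays, 17 on 1 to 5 arrays, 4 on 6 to 10 arrays and 1 on all 11. The count of members never above it depended on where the limit was set: it was 8 with the 75th percentile, 34 with the 95th, 7 with the 60th percentile of all probe sets and 6 with the highest yeast or mouse cytokine control. Each statement below that a member lay under background refers to the 90th percentile. Cyp2a1, above it on all 11 arrays, is 2.04% of the members, where 10.7% of all genes stood above background on all arrays. The members never above it made up 55.1%, against 41.3% of all genes. On old replicate 3, 17 members stood above background, and 5 members did so on that array only. The other arrays had 5 to 10. Over all genes, old replicate 3 had 36.2% above background and the other arrays 22.4% to 34.6%. The 5 members were Cyp4b1 and Cyp2f4, both known from lung, and Cyp2d3, Cyp2c6v1 and Cyp27b1. Not all of them were brightest there, because the background of old replicate 3 was low, at 423. Cyp2f4 read 493.6 in old replicate 3 and 494.9 in young replicate 4, where the background was 619. Cyp27b1 read 439 in old replicate 3 and 731 in old replicate 6, where the background was 804. Without this array, 32 members in place of 27 were never above background.

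**Figure D1:**
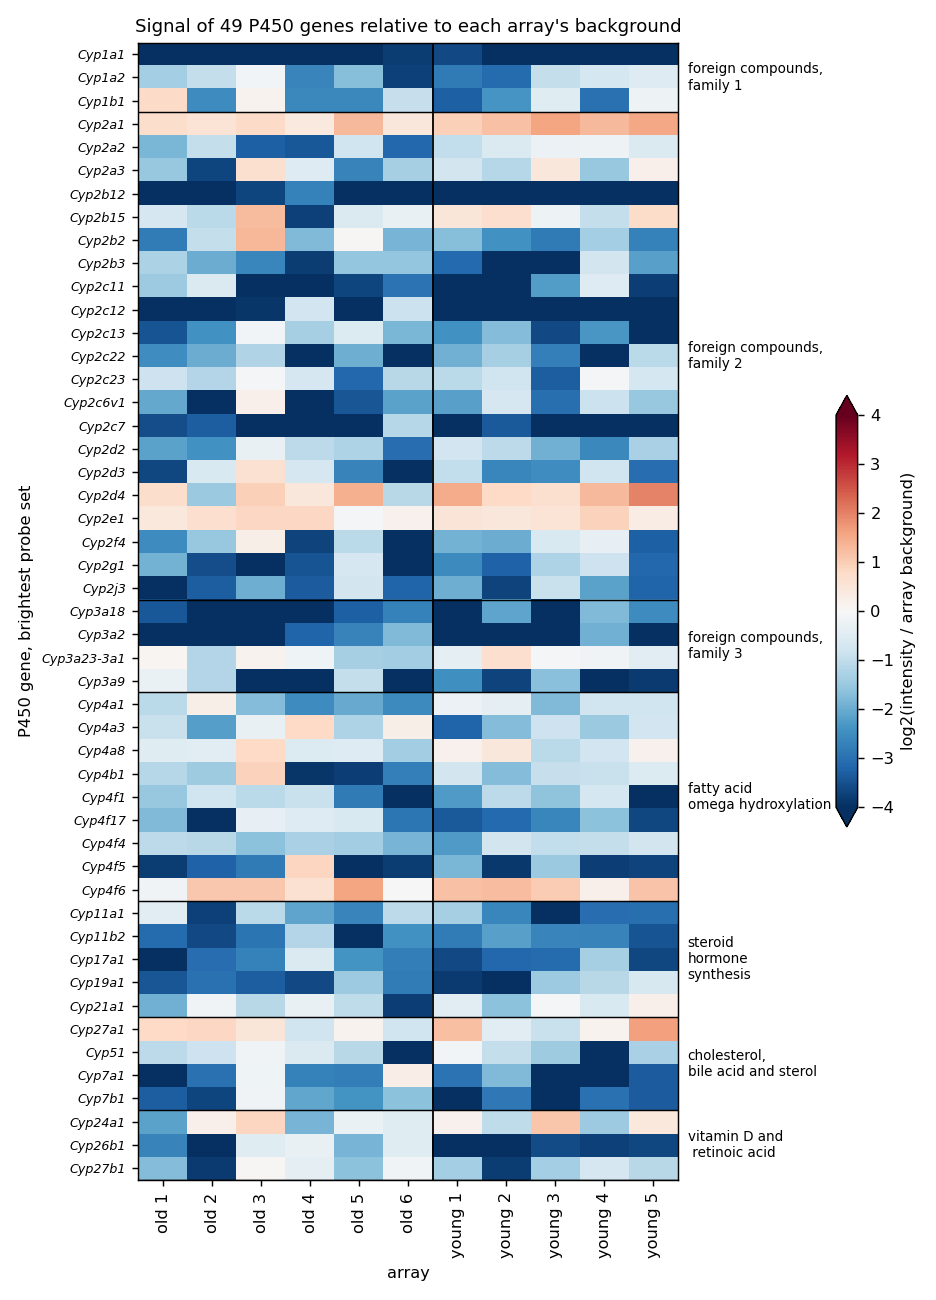
Signal of the 49 P450 genes (rows, grouped by role) on the 11 arrays (columns), as log2 of intensity over the background of the same array; red is above background, blue below, and colours stop at 4 log2 units on either side. Cyp2a1 is red on all 11 arrays, Cyp2d4, Cyp2e1 and Cyp4f6 on 9, 10 and 10, and most other rows are blue.

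Above background on all arrays of at least 1 age group were 4 P450 genes, 8.16% of the members, where 17.8% of all genes met this rule. They were Cyp2a1, Cyp2d4 and Cyp2e1 of family 2 and Cyp4f6 of family 4. Their age differences, given here with them, are log2 differences, old minus young, each with its standard error (SE) from limma. Of the 5244 tested probe sets, 0% passed an adjusted p of 0.05.

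Cyp2a1, a hydroxylase of testosterone in rat liver, was read by the shared probe set M33312cds_s_at. In old it ran from 632 through a median of 691 to 1584 in intensity, and in young it was 710, 1644, 1215, 1510 and 1040. Every one of these lay above its array's background, by 1.33 to 2.96 times. Old replicates 1 to 4 lay together at 632 to 721, with old replicate 3 (721) just above young replicate 1 (710). Old replicates 5 and 6 lay higher, among the young arrays. The groups overlapped, and the difference of -0.49 ± 0.36 (SE) did not pass (limma adjusted p = 0.774). It was -0.75 among the dim arrays and -0.72 ± 0.39 with spike-in class as a block.

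Cyp2d4, a 2D form known from rat brain, was read by the shared probe set rc_AA997886_s_at. In old its intensity ran from 162 through a median of 659 to 1742, and in young it was 1019, 1270, 638, 1522 and 1385. It stood above background on 5 of 5 young and 4 of 6 old arrays. The exceptions were old replicates 2 (162) and 6 (372), and old replicate 5 was the highest of all. The difference of -0.95 ± 0.49 (SE, limma adjusted p = 0.661) became -0.59 without old replicate 2 and -1.40 ± 0.51 with spike-in class as a block. Among the dim arrays it was -1.65, with old replicates 1 and 2 as the only old arrays.

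Cyp2e1, which oxidises ethanol and other small molecules, was read by the shared probe set S48325_s_at. In old it ran from 549.5 through a median of 737 to 898, and in young it was 521, 993, 606, 1173 and 437. It was above background on 10 of 11 arrays, and on old replicate 5 it lay just below, at 0.96 times. The age difference of 0.06 ± 0.37 (SE, limma adjusted p = 0.978) was smaller than its error, with old values inside the young range. It was 0.05 among the dim arrays and -0.20 ± 0.40 with spike-in class as a block. It also turned negative without old replicate 6 (-0.01), young replicate 1 (-0.05) or young replicate 5 (-0.11).

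Cyp4f6, of a subfamily that hydroxylates leukotrienes and fatty acids, was the only 1 of the 4 read by a probe set without a shared or family suffix (U39208_at). Its old values ran from 374 through a median of 851 to 1950, and its young values were 824, 1726, 837, 705 and 778. It was above background on 10 of 11 arrays, the exception being old replicate 1 at 0.92 times. Old replicate 5 and young replicate 2 were the high arrays of their groups. The difference was -0.12 ± 0.41 (SE, limma adjusted p = 0.956), and it was 0.10 without young replicate 2 and 0.11 without old replicate 1. Among the dim arrays it was -0.73 and among the bright ones, with 1 young array, 0.51. Without old replicate 1 or old replicate 5, 2 genes in place of 1 stood above background on all remaining arrays.

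**Figure D2:**
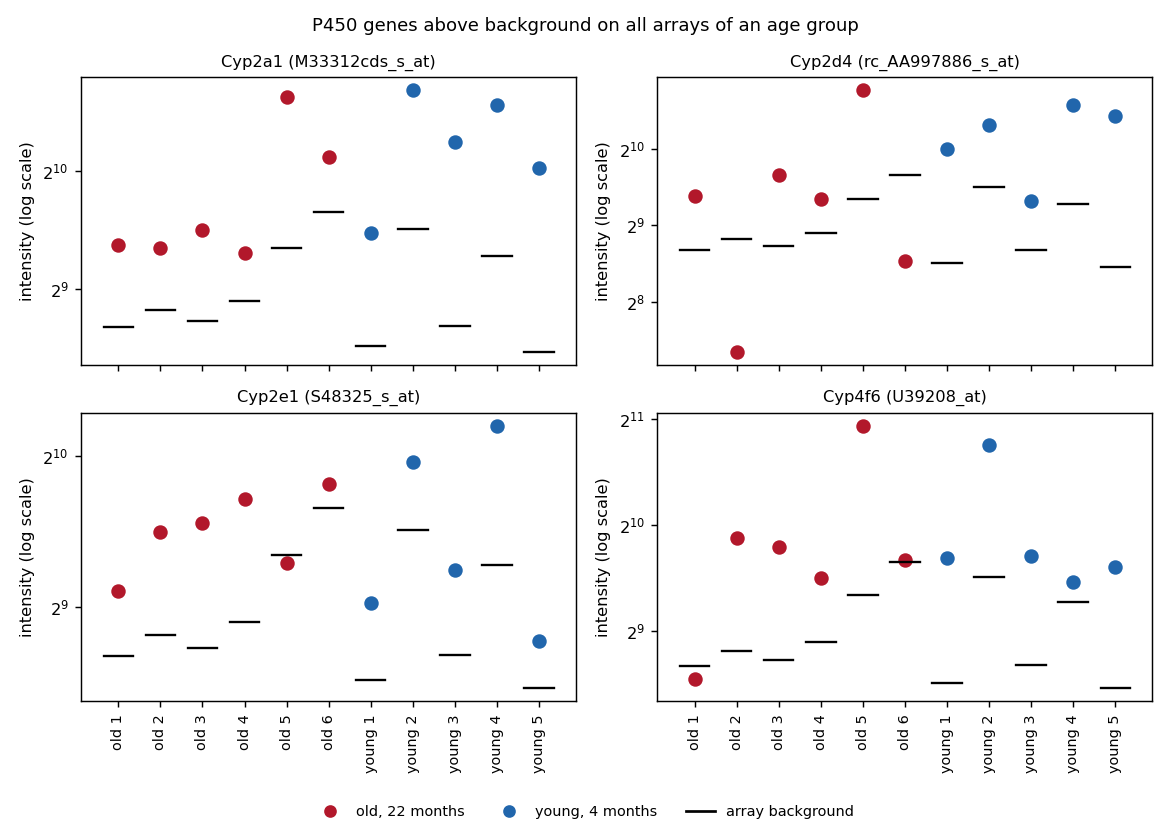
Intensity (log scale) of Cyp2a1, Cyp2d4, Cyp2e1 and Cyp4f6 on each of the 11 arrays, old in red and young in blue; the black bar at each array is that array's background. Old and young points overlap in all 4 genes, and Cyp2d4 falls below the bar in old replicates 2 and 6.

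Among the 28 genes of families 1 to 3, 17 were never above background. Cyp1a1, a target of the Ah receptor and the standard mark of exposure to planar aromatic compounds, reached at most 0.08 times background, with 10 of 11 arrays at or under the floor of 47.4 that was set before logs were taken. Cyp1b1, another Ah receptor target, stood above background on 2 old arrays and 0 young ones. Cyp2c11 and Cyp2c12, the liver forms known for sex-specific expression in rats, were below background on all 11 arrays, as was Cyp2c13. Cyp2j3, an arachidonic acid epoxygenase known from rat heart muscle cells, was also below it on all 11 arrays. Its brightest probe set ran from 25.7 to 391 in old and from 38.5 to 220.1 in young, at most 0.60 times background, and its other 2 probe sets were above background on 0 arrays too. Cyp2c23, the epoxygenase known from rat kidney, reached at most 0.97 times with its brightest probe set, in young replicate 4. Its probe set U04733_s_at stood above background on 1 old and 1 young array, at up to 1.78 times, and rc_AI169372_g_at on 0. Cyp2b15, read by a family probe set, was above background on 1 old and 3 young arrays, and Cyp3a23-3a1 on 2 old and 1 young.

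Of the 9 genes of family 4, 3 were never above background and 5 were on 1 to 4 arrays. Cyp4a8, a fatty acid hydroxylase known from kidney, was above it on 1 old and 3 young arrays, with 289 to 730 in old and 196 to 1002 in young. Cyp4a3, a hydroxylase of arachidonic acid, was above it on 2 old arrays. Cyp4b1, known from lung, was above it in old replicate 3 only, at 793, while the other 10 arrays read 32.3 to 333. That is the array with the lung markers.

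The 5 genes of steroid hormone synthesis were close to absent from the readings above background. Cyp11a1, which starts the pathway from cholesterol, Cyp11b2, the aldosterone synthase, Cyp17a1 and the aromatase Cyp19a1 were below background on all 11 arrays. Cyp21a1, the 21-hydroxylase, exceeded it in 1 young array, at 1.14 times. A level below background is a limit of this array and does not show that a transcript is absent, and in RNA of whole ventricle fewer cells of a type and less RNA per cell cannot be told apart.

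Among the 4 genes of cholesterol, bile acid and sterol metabolism, Cyp27a1 was the one above background on most arrays. This mitochondrial sterol 27-hydroxylase read 275 through a median of 650 to 799.5 in old and 845, 527, 220, 688 and 1106 in young, above background on 4 of 6 old and 3 of 5 young arrays. Its difference was -0.09 ± 0.45 (SE). Cyp51, the sterol demethylase of cholesterol synthesis, was below background on all 11 arrays with each of its 5 probe sets. Cyp7a1, the rate-limiting enzyme of bile acid synthesis, exceeded it on 1 old array and Cyp7b1, an oxysterol hydroxylase, on 0.

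Of the 3 vitamin D and retinoic acid enzymes, Cyp24a1, which breaks down vitamin D, was above background on 2 old and 3 young arrays. Cyp27b1, which makes the active vitamin, was above it on 1 old array, at 1.04 times. Cyp26b1, which breaks down retinoic acid, was above it on 0 arrays.

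The 49 genes lean on probe sets that can read relatives. The suffix _s_at marks a probe set whose probes match several similar transcripts and _f_at one that matches a gene family. Together these made up 50 of the 84 P450 probe sets (59.5%), against 19% of all probe sets, controls aside. The brightest probe set carried _s_at for 28 genes and _f_at for 2, Cyp2b15 and Cyp2c6v1, and for 24 genes no other kind was on the array. A reading from such a probe set may include related P450 transcripts. A further 13 probe sets, each with several symbols of which at least 1 was a P450 gene, were kept out by the rule. One of them, X62086mRNA_s_at, stood above background on all 11 arrays, at 1.34 to 4.79 times, with 1026 to 2140 in old and 1344, 3068, 1969, 1481 and 1501 in young. It is given by its probe set name, because the annotation does not settle which gene it reads.

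For 21 genes with several probe sets, these often differed in whether they stood above background. Cyp2e1 was above it on 10 arrays with its brightest probe set, on 1 with M20131cds_s_at and on 0 with AF056333_s_at. Cyp2d4 was above it on 9 arrays with its brightest and on 1 with U48220_at. Cyp27a1 was so on 7 and 3 arrays, and Cyp24a1 on 5 and 0. In 12 of the 21 genes the probe sets also differed in the sign of the age difference. For Cyp2d4 both were lower in old, at -0.95 ± 0.49 (SE) and -0.01 ± 0.70 (SE).

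**Figure D3:**
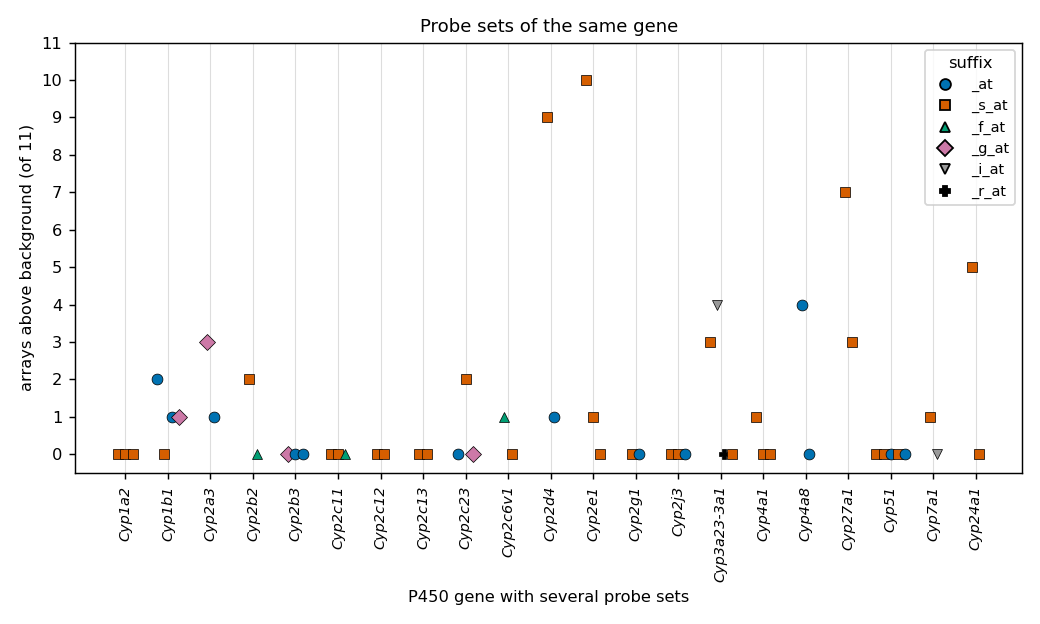
Number of the 11 arrays above background (vertical axis) for each probe set of the 21 P450 genes with several probe sets; symbols give the suffix. Cyp2e1 spans 0 to 10 arrays and Cyp2d4 spans 1 to 9, while all 5 probe sets of Cyp51 and all 3 of Cyp2j3 lie at 0.

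In the comparison of old with young rats, no P450 gene passed the adjusted threshold. Of 49 members, 26 had a mean log2 intensity at or over the filter at the 40th percentile of all probe sets, 7.0, and were tested. The 23 left out cannot be called in either direction. Of the 26, 0 passed an adjusted p of 0.05 in limma, where the lowest value was 0.56. Without adjustment, at p under 0.05, 0 members were higher and 1 was lower in old, against 3.18% and 3.68% of all 3206 genes tested. In 0 members did the old and young arrays not overlap, where 0.998% of all genes tested did not overlap. Lower in old were 18 of the 26 and higher 8, with a median difference of -0.11. Over all genes tested 1613 were lower and 1593 higher, with a median of -0.0053. The 14 tested members with the suffix _s_at had 9 lower and 5 higher, with a median of -0.07. All tested _s_at probe sets leaned the same way, with 527 lower, 392 higher and a median of -0.11. The 10 tested members with the plain suffix _at had 7 lower and 3 higher, with a median of -0.11. All tested _at probe sets had 1673 lower and 1759 higher, with a median of 0.02. The split of the members went to 20 lower and 6 higher with median centring or quantile normalization, which moved the median of all tested probe sets to -0.29 and -0.12. It was 20 and 6 without old replicate 3, with a median of -0.27, and 13 and 13 without young replicate 2, with a median of 0.0071.

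By role, family 2 had 7 of 11 tested members lower, with a median of -0.38, and family 4 had 6 of 7 lower, with a median of -0.12. Among the 23 members under the filter, 16 had a higher and 7 a lower mean in old. Dim probe sets in general leaned this way: the median difference over all probe sets was -0.01 with the filter and 0.11 without it. The 16 and 7 are therefore not read as a trait of the P450 genes. All but Cyp21a1 of the steroid group, and all but Cyp3a23-3a1 of family 3, were among the 23 members under the filter.

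**Figure D4:**
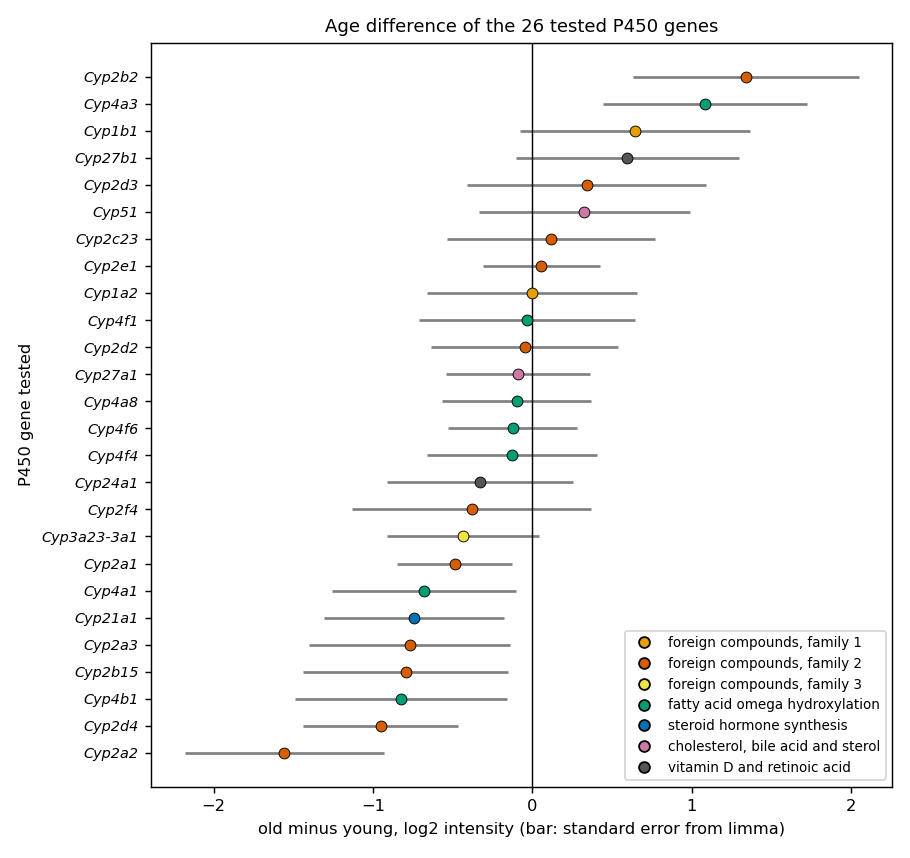
Old minus young difference in log2 intensity (horizontal axis) for the 26 tested P450 genes, sorted, coloured by role, with the standard error from limma as bars. The values run from -1.56 for Cyp2a2 to 1.34 for Cyp2b2, and 0 of them passed an adjusted p of 0.05.

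On the lower side, the 4 members with the smallest p were Cyp2a2, Cyp2d4, Cyp2a1 and Cyp21a1. Cyp2a2, another liver hydroxylase of testosterone, ran from 44.1 through a median of 102 to 374.5 in old, and was 185, 483, 350, 539 and 236 in young. It was below background on all 11 arrays, and old replicates 2 (233) and 5 (374.5) lay within the young range. The difference was -1.56 ± 0.62 (SE, unadjusted p = 0.0218, limma adjusted p = 0.56). The lowest arrays were old replicates 3 (44.1) and 4 (45.7), those of high GAPDH ratio, and without both it was -0.93. It was -0.84 among the dim and -2.53 among the bright arrays, the latter with 1 young array.

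Cyp21a1 ran from 58.8 through a median of 259 to 412 in old and was 276, 234, 396, 409 and 403 in young. Old replicates 1 (108), 3 (197) and 6 (58.8) lay below all young arrays, and the other 3 read 320 to 412. The difference was -0.74 ± 0.57 (SE, limma adjusted p = 0.777), and without old replicate 6 it was -0.39. With spike-in class as a block it was -0.77 ± 0.64.

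On the higher side, the 4 members were Cyp2b2, Cyp4a3, Cyp1b1 and Cyp27b1. Cyp2b2, a form that phenobarbital induces in liver, ran from 59.3 through a median of 227.5 to 1065 in old and was 112, 137, 58.0, 240 and 53.7 in young. Old replicates 3 (1065), the array with lung markers, and 5 (675) were the only arrays above background, and the other 4 old arrays lay within the young range. The difference was 1.34 ± 0.71 (SE, limma adjusted p = 0.669). It was 0.93 without old replicate 3 and 0.57 ± 0.71 with spike-in class as a block. The other Cyp2b2 probe set, J00728cds_f_at, was under the filter, differed by 0.12 and was above background on 0 arrays.

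Cyp4a3 ran from 97.8 through a median of 308 to 952 in old and was 39.8, 219, 230, 220.1 and 207 in young. Old replicates 4 (825) and 6 (952), both of the bright class, stood high, and young replicate 1 stood low. The difference was 1.08 ± 0.64 (SE, limma adjusted p = 0.71), and it was 0.64 without young replicate 1, 0.45 ± 0.66 with the class as a block and -0.03 among the dim arrays.

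Cyp1b1 ran from 79.1 through a median of 266 to 690 in old and was 38.4, 142, 292.5, 77.8 and 306.5 in young. Old replicates 1 (690), 3 (464) and 6 (423) lay above all young arrays, and the other 3 old arrays among the lower young ones. Its difference of 0.64 ± 0.72 (SE, limma adjusted p = 0.853) was smaller than its error. Without old replicate 1 it was 0.30, without old replicate 3 it was 0.42 and without young replicate 1 it was 0.26. It was 0.58 among the dim arrays, 1.39 among the bright ones and 0.88 ± 0.81 with spike-in class as a block. The other Cyp1b1 probe sets, all under the filter, differed by -0.56 (X83867cds_s_at), 1.22 (rc_AI176856_at) and 1.05 (U09540_g_at). Old replicate 3, the array with lung markers, read 869 in rc_AI176856_at and 846 in U09540_g_at. The other arrays read at most 261 and 125 there, and in U09540_g_at all young arrays lay under the floor.

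Cyp27b1 ran from 31.6 through a median of 284 to 731 in old and was 144, 52.1, 160, 391 and 165 in young. All 5 arrays of the bright class read 208 or more and all 6 dim arrays 165 or less. The difference of 0.60 ± 0.70 (SE, limma adjusted p = 0.862) was 0.19 without the arrays of high GAPDH ratio and turned to -0.40 ± 0.63 with spike-in class as a block, and the groups overlapped.

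Cyp26b1, singled out after its values were seen, was under the filter. It read 64.7, 18.3, 300, 386, 181 and 571.5 in old replicates 1 to 6 and 18.4, 43.3, 34.6, 46.8 and 28.4 in young, where all 5 lay under the floor. Only old replicate 2 overlapped the young arrays, and all 11 readings lay below background, the highest at 0.81 times. The 4 high old arrays were those with bright spike-ins, while young replicate 4, of the same class, read 46.8. Without the filter the difference was 1.94 ± 0.63 (SE, limma unadjusted p = 0.00824, adjusted p = 0.721). All young arrays were set to the floor in that fit, so its SE and p take in no measured spread among young arrays. In the same fit 585 of 8740 probe sets had an unadjusted p under 0.05, and the median difference of all was 0.11.

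**Figure D5:**
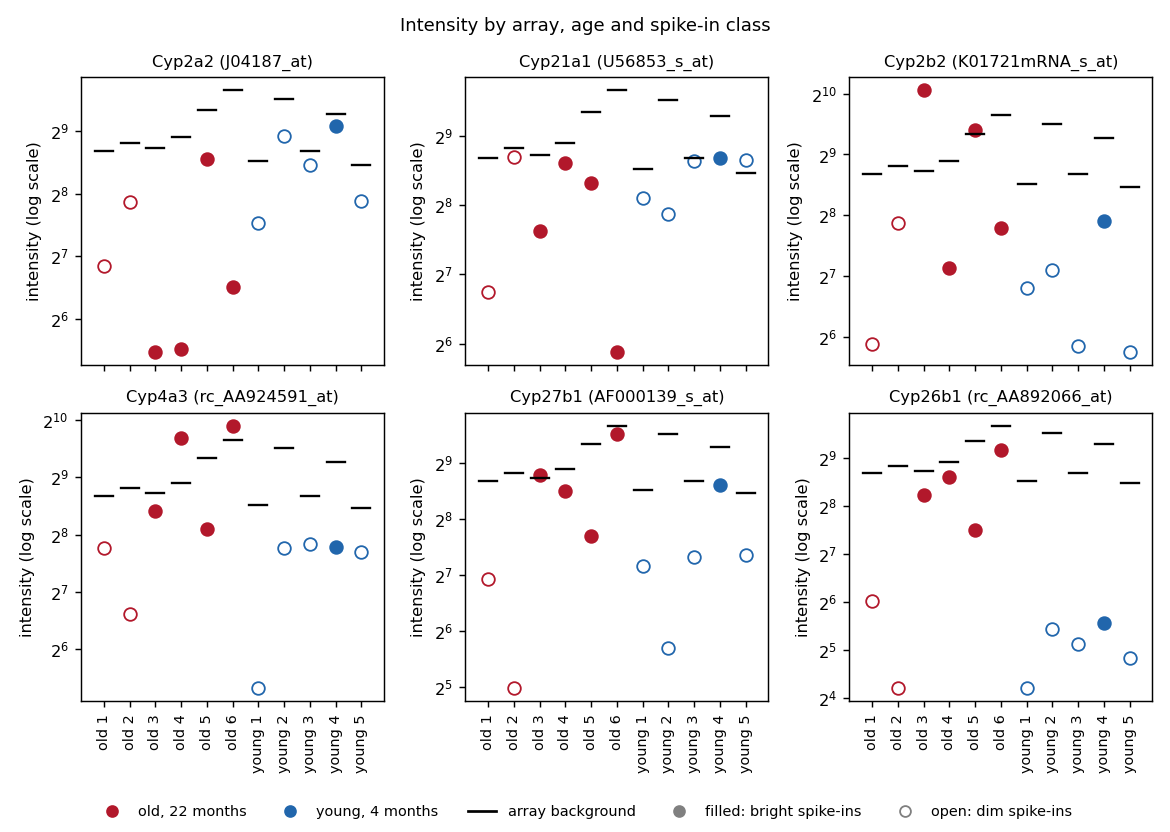
Intensity (log scale) on the 11 arrays for the 5 named P450 genes Cyp2a2, Cyp21a1, Cyp2b2, Cyp4a3 and Cyp27b1 and for Cyp26b1; red is old, blue young, filled points have bright spike-ins and black bars are the array background. Cyp27b1 separates filled from open points, and in Cyp26b1 the 4 filled old points at 181 to 572 stand above all the others.

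Partner genes of the P450 system were measured for 56 genes, of which 14 (25%) stood above background on all arrays of an age group, where 17.8% of all genes did. Of 42 tested, 0 passed an adjusted p of 0.05 in limma. At an unadjusted p under 0.05, 1 of the 42 was higher and 1 lower, where 3.18% and 3.68% of all genes tested were. Among 13 genes of electron supply and haem synthesis, Por, Cyb5r3 and Alas1, the first enzyme of haem synthesis, stood above background on all 11 arrays. Por differed by -0.33 ± 0.35 (SE), Cyb5r3, which reduces cytochrome b5, by -0.04 ± 0.30 (SE) and Alas1 by -0.05 ± 0.32 (SE). Fdx1 was above background on 5 old and 4 young arrays. Hmox2, a haem oxygenase, differed by -1.21 ± 0.59 (SE).

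Among 20 regulators of P450 genes, 10 of 14 tested were lower in old, with a median difference of -0.36. Of all 3206 genes tested 1613 were lower, with a median of -0.0053. In limma 0 of the 14 regulators had an unadjusted p under 0.05. Ahr, the Ah receptor, and Ppara, which controls the Cyp4a genes in liver, were above background on 0 arrays, and Ppara differed by -1.15 ± 0.60 (SE, limma adjusted p = 0.662). Rxrg, a retinoid X receptor of muscle, was above background on 5 old and 5 young arrays and differed by -0.89 ± 0.43 (SE, limma adjusted p = 0.661).

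Eicosanoid and epoxide enzymes had 7 of 10 tested members higher, with a median of 0.20. Of all 3206 genes tested 1593 were higher and 1613 lower. Ephx2, the soluble epoxide hydrolase that breaks down the epoxides made by P450s, stood above background on all 11 arrays and differed by -0.21 ± 0.37 (SE). Pla2g2a, a secreted phospholipase, was the member at an unadjusted p under 0.05 that was higher, at 1.08 ± 0.40 (SE, limma adjusted p = 0.56), and Lta4h, the leukotriene A4 hydrolase, the lower one at -0.89 ± 0.36 (SE, limma adjusted p = 0.572). Ptgis and Tbxas1, the prostacyclin and thromboxane synthases, are P450 proteins whose symbols do not start with Cyp. Ptgis was above background on 2 old and 2 young arrays and differed by 0.73 ± 0.72 (SE), and Tbxas1 was above it on 1 old array. Of 10 genes of steroid handling, Tspo and Hsd17b4 were above background on all 11 arrays, and 4 of 6 tested were lower, with a median of -0.12.

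Markers of organs known for P450s were read in the same way. Of 17 hepatocyte genes, 9 (52.9%) were above background on 0 arrays, where 41.3% of all genes were, Apoc3 was so on 10 and Ttr on 8, and Alb on 1. The mean log2 value of the list was 6.76 to 7.69 in old and 6.86 to 8.29 in young. Of 4 kidney genes, 0 were above background on all arrays, where 10.7% of all genes were. Umod was above it on 7 arrays, Slc34a1 on 6, and Aqp2 and Slc22a6 on 1 each. Of 3 genes of steroid-making cells, Inha, which is also among the genes that set the background, was above it on 10 arrays, Lhcgr on 2 and Star on 1. Of the 5 lung genes, Sftpb stood above background on all 11 arrays and Sftpc, Sftpa1 and Sftpd in old replicate 3 only. The mean log2 value of the lung list was 6.52 to 11.35 in old and 6.44 to 8.17 in young. Lep, a fat cell hormone gene, was also above it on all 11, while Plin1 was on 0. Among cells of the heart itself, 3 of 6 fibroblast genes and 1 of 4 macrophage genes were above background on all 11 arrays. So were 0 of 4 smooth muscle and 0 of 5 endothelial genes. Over all genes 10.7% were, so a count of 0 in a list this short says little about that list. In these lists 0 genes passed an adjusted p of 0.05 in limma. At an unadjusted p under 0.05, where 3.18% of all genes tested were higher in old, so were Alb and Otc of 10 hepatocyte genes tested, 2 of 4 macrophage genes, 1 of 6 fibroblast genes and 1 of 4 fat cell genes. Lower, where 3.68% of all genes were, lay 1 of 10 cardiomyocyte genes and Inha of 2 steroidogenic genes tested. By sign alone, the 10 hepatocyte genes tested split into 5 higher and 5 lower, with a median of -0.01. The 6 fibroblast genes split into 3 and 3, with a median of -0.01. Otc was above background on 0 arrays. Whether cells of these kinds contributed to the P450 signals was not tested.

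In the RefSeq annotation of the assembly GRCr8, used for gene order only, 49 of 49 members were matched by gene number. With at most 10 protein-coding genes between neighbours, 32 of them lay in 7 runs. The run of Cyp2a, Cyp2b, Cyp2f and Cyp2g genes held 9 members, of which Cyp2a1 was above background on 11 arrays, Cyp2b15 on 4, Cyp2a3 on 3, and Cyp2a2, Cyp2b3, Cyp2b12 and Cyp2g1 on 0. The Cyp4f run held 5 members, of which Cyp4f6 was above it on 10 arrays, Cyp4f5 on 1 and Cyp4f1, Cyp4f4 and Cyp4f17 on 0. Cyp2d4, above background on 9, neighboured Cyp2d3 on 1 and Cyp2d2 on 0. Members of these runs thus differed in how many arrays stood above background, within the limits of probe sets that can read relatives. Other runs differed less. In the Cyp2c run of 5, Cyp2c6v1 was above it on 1 array and the rest on 0, and Cyp1a1, Cyp1a2 and Cyp11a1 were on 0. Cyp3a23-3a1 was on 3, with Cyp3a2 and Cyp3a18 on 0, and the run of Cyp4a genes and Cyp4b1 had 1 to 4.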

How the data were processed

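The deposited table gives a linear intensity for 8799 probe sets on every array. How the authors made these intensity values (software, background correction) is not given in the sources here. They had been scaled per array, since each array's mean, trimmed by 2% at either end, was 500.5 to 501.0, so changes are relative to the other transcripts of an array. A floor was set at the 20th percentile of intensity, 47.4, before log2 values were taken. The 59 control probe sets and those with a mean log2 value under the 40th percentile were left out, which left 5244. The age groups were compared with limma 3.58.1 (R 4.3.3) with a mean-variance trend, two-sided, with Benjamini-Hochberg adjustment over all 5244. The number of arrays limits the precision: the median SE of a difference was 0.56. The script was tested on simulated data.

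Gene symbols come from GEO's platform annotation, checked by gene number against RefSeq (0 members changed). No coordinates are printed because the table names no genome build. Members, lists and tests were chosen with earlier results of these data known. Of 133 genes of other organs listed for the background, 115 were measured. Full values are given for members above background on all arrays of an age group, and for the 4 tested members with the smallest p in each direction. Other members named as examples were chosen after their values were seen. Alternatives were other floors, filters, scalings and background limits, no trend, array weights, a replicate block, the spike-in class, and leaving arrays out.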

Additional observations from a re-analysis of the deposited data

Results flagged for a closer look

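In 20 groups of arrays (10 named genes, 2 ages), 2 held an array far from the others of its group, where about 1 in 20 is flagged by chance. Cyp4a3 in young replicate 1 lay at the floor, 5.57 on the log2 scale, against 7.69 to 7.84 in the other young arrays. Cyp4f6 in young replicate 2 read 10.75, against 9.46 to 9.71.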

How the results depend on the processing

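Over the alternatives run, 0 P450 genes passed an adjusted p of 0.05 in limma, and at a threshold of 0.1 also 0. Over all probe sets, 1 passed among the dim arrays alone, 5 among the bright ones alone, where the single young array is assumed to vary like the others, and 0 to 2 when an array was left out, with 2 without old replicate 5. The median difference of the P450 genes was -0.63 among the bright arrays alone and ran from -0.30 to 0.01 when an array was left out. Above background on all arrays of an age group there was 1 gene, Cyp2a1, at the 95th percentile of the other-organ probe sets, 6 at their 75th percentile (adding Cyp2a2 and Cyp3a23-3a1), 6 at the 60th percentile of all probe sets (adding Cyp2b15 and Cyp3a23-3a1), 5 at the highest yeast or mouse cytokine control (adding Cyp27a1; chosen after seeing the data), 3 with probe sets without a shared suffix where a gene has one, and 4 whichever array was left out. On all 11 arrays there were 3 genes (Cyp2a1, Cyp2e1 and Cyp4f6) under the same 3 other limits, 0 at the 95th, and 1 to 2 when an array was left out. Cyp27b1 turned to -0.21 with array weights, -0.40 with spike-in class as a block and -0.64 among the dim arrays. Cyp4a3 turned to -0.026 among the dim arrays and Cyp4f6 to 0.51 among the bright ones, against -0.73 among the dim ones. Cyp2e1 turned to -0.017 with quantile normalization, -0.23 with median centring, -0.20 with spike-in class as a block and -0.60 among the bright arrays. It was -0.014 without the arrays of high GAPDH ratio and -0.0071 with the replicate block. For the named members the replicate block gave the same differences as leaving out old replicate 6, which has no young array of its number. When an array was left out, Cyp2e1 ran from -0.11 to 0.25 and Cyp4f6 from -0.37 to 0.11. The cause of these turns was not tested. Deviations of same-numbered old and young arrays correlated at -0.25 to 0.25 over 5 pairs. Old replicate 1 correlated best with the young array of its own number, and the other old arrays did not. So few pairs cannot settle whether the replicate numbers pair arrays. With the replicate block 0 probe sets passed. Signals under the array background limit every statement on the dimmer members.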
